A study of Mus musculus with 18 samples.

Results

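The genes described here are heat shock and chaperone genes of the mouse cerebellum, chosen by name: Hspa8, Hspa4, Hspd1, Hsp90ab1, Hspa1a, Dnajb1, Hsph1, Hsp90aa1, Cryab and Hspb8. All probe sets carrying exactly 1 of these 10 symbols were taken, which gave 25 probe sets of 9 genes, out of 34945 probe sets and 18193 genes with 1 symbol in the whole series. Hsp90ab1 had no such probe set and was not analysed here. From textbook knowledge, Hspa8, Hspa4 and Hspd1 were taken as constitutive, with 9 probe sets, and Hspa1a, Dnajb1, Hsph1, Hsp90aa1, Cryab and Hspb8 as inducible, with 16 probe sets. Hspd1 encodes the mitochondrial chaperonin HSP60, so it is the 1 measured gene whose product does not act in the cytosol.

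The study concerned spinocerebellar ataxia type 6, an inherited ataxia caused by a CAG repeat expansion in Cacna1a, a calcium channel gene. Cerebellar RNA of homozygous MPI 118Q/118Q knock-in mice, Sca6 CtmKO/CtmKO knockout mice and homozygous MPI 11Q/11Q knock-in mice was hybridised to Affymetrix arrays, and each line had its own wild-type littermates. All 6 groups had 3 arrays and strain C57BL/6, and no treatment is named. An age of 6 weeks is given for the 118Q/118Q and CtmKO/CtmKO mice. The labels do not say how the alleles were built, what limits each line as a model, or whether the 3 replicates of a group came from separate litters, so p-values measure the spread between these samples. Expression values are on a log2 scale, on which a difference of 1 is a doubling.

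Chaperones of the HSP70 family bind exposed stretches of unfolded proteins in cycles of ATP hydrolysis. J-domain proteins such as the product of Dnajb1 start the cycle, and HSP110 proteins such as those of Hspa4 and Hsph1 exchange the nucleotide that ends it. HSP90 takes over partly folded clients, and the small heat shock proteins of Cryab and Hspb8 hold unfolded proteins without ATP. Constitutive members are made in unstressed cells, whereas inducible members are switched on by heat shock factor HSF1, which binds repeats called heat shock elements. In the cerebellum, chaperones are studied in polyglutamine ataxias, in which expanded proteins tend to aggregate.

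Promoter windows are shown for 5 genes because HSF1 binds heat shock elements. Each window holds 250 bases before and 50 after an annotated start, taken from RefSeq on build GRCm38.p6 and printed 5′ to 3′ on the gene's strand. The element was searched on both strands as 3 adjoining 5-base units that alternate between NGAAN and NTTCN, and in a shorter form of 2 units, GAANNTTC or TTCNNGAA, which the full form always contains. Capitals mark full elements, and in windows without one they mark the shorter form. Of 32851 windows in the RefSeq table, 0.597% held the full form and 15.1% the shorter one.
Hspa4, chr11:53300430-53300729, minus strand: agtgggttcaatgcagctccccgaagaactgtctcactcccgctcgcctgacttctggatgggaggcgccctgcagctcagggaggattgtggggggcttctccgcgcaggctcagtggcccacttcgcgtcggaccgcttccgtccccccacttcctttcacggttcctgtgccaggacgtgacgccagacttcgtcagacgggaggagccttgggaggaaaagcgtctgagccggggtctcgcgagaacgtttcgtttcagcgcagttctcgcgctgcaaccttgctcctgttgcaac
Hspd1, chr1:55087883-55088182, minus strand: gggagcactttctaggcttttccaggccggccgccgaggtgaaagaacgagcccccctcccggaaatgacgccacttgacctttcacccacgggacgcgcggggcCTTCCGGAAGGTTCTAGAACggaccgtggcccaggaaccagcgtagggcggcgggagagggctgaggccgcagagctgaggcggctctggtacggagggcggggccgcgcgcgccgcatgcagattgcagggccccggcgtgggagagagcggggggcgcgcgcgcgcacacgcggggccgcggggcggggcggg
Hsph1, chr5:149636287-149636586, minus strand: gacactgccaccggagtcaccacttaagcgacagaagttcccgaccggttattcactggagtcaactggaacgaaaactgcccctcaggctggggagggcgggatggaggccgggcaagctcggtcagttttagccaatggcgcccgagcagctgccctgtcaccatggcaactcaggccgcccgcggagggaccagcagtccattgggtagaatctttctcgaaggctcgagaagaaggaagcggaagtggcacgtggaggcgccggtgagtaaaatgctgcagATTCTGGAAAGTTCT
Hspa1a, chr17:34972107-34972406, minus strand: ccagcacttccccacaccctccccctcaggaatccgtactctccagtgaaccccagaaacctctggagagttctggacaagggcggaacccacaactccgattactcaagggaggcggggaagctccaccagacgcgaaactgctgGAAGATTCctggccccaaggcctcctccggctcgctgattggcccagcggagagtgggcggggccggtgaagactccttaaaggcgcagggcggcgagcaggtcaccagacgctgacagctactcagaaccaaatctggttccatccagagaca
Hspb8, chr5:116422815-116423114, minus strand: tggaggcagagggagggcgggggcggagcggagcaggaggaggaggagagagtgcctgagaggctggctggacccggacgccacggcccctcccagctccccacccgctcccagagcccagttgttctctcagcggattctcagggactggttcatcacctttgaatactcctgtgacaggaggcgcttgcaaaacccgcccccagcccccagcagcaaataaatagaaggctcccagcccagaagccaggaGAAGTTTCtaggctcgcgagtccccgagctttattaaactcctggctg

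Windows were at hand for 6 of the 10 genes, and none was used for Hspa8, Hsp90aa1, Hsp90ab1 or Cryab. The Hspa4 window held neither form, and neither did either of the windows of Dnajb1, which encodes an HSP40 co-chaperone. The Hspd1 window held 2 overlapping full elements, beginning 145 and 140 bases before the start, whereas a further Hspd1 start at chr1:55088194-55088493 had none. Only 10 of all windows held 2 full elements. The Hspd1 window shared 285 bases with that of Hspe1, the gene of the HSP10 partner of HSP60 on the opposite strand. The Hsph1 element began 35 bases past the start, and the same element lay 14 bases past a second annotated start. Hspa1a and Hspb8 held the shorter form only, 104 bases before the start and 2 bases past it. The exact matches did not follow the classes assigned here, as constitutive Hspd1 held full elements and inducible Dnajb1 held neither form. Elements with a mismatched base or outside the windows were not searched for, so a window without a match may still hold an inexact element. The matches describe letters in a window and do not show binding.

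Arrays had similar overall signal, with medians between 2.38 and 2.55 and pairwise correlations between 0.973 and 0.995. The tissue's defining genes were among the brightest: Calb1 of Purkinje cells and Gabra6 of granule cells both lay at percentile 99.9 of mean signal. Wild types of the Ctm line stood apart over the 300 probe sets called higher in Ctm knockouts. There, Ctm wild-type arrays 1 to 3 lay a median of -0.52, -1.13 and -1.33 from the mean of the 6 other wild types. The 3 knockout arrays lay between -0.12 and 0.012 of it. These probe sets were chosen because knockouts exceeded Ctm wild types, so a gap between those groups was fixed in advance. The list cannot show whether the Ctm wild types stand apart elsewhere. Over all probe sets they correlated with each other at 0.990 or more. As wild-type arrays 2 and 3 lay furthest off, results of the Ctm line are also given without them. In the 11Q line, wild-type array 3 stood apart in some inducible genes, as given below.

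In 118Q knock-ins, 2 probe sets of Hspa4 fell, and no other of the 25 chaperone probe sets passed the test in either direction. Hspa4, whose product is an HSP110 protein that exchanges nucleotide on HSP70, was at 67.2% and 57.9% of the wild-type level by these probe sets. The constitutive genes Hspa8 and Hspd1 and the bright probe sets of inducible Hsp90aa1 also had lower values without passing, whereas Dnajb1, Cryab and Hspb8 had changes of -0.0052, 0.065 and 0.16 at their brightest probe sets. The 2 called probe sets compare with 0.558% of all probe sets called in this line, 0.292% in the lower direction, by limma at an adjusted p of 0.05. No member rose, beside 0.266% of all probe sets. At an unadjusted p of 0.05, 9 of the 25 probe sets were lower and 1 was higher, beside 5.32% and 8.73% of all probe sets. At brightest probe sets, 5 of 9 genes were lower and 0 higher, beside 986 and 1818 of all 18193 genes.

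The brightest Hspa4 probe set, 1416147_at, read 6.36, 6.43 and 6.49 in 118Q knock-ins, against 7.16, 6.83 and 7.00 in their wild types. In Ctm knockouts it read 6.91, 7.08 and 6.83, against 6.85, 6.97 and 6.85 in Ctm wild types. In 11Q knock-ins it read 7.06, 6.97 and 7.24, against 6.92, 7.03 and 6.97 in 11Q wild types. The 3 arrays of 118Q knock-ins were thus the lowest of all 18, with a gap to every other array, and in the Ctm and 11Q lines the groups overlapped. The change in 118Q knock-ins was -0.57 ± 0.11 (SE), with an adjusted p of 0.0294 in limma.

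Probe set 1435194_at of Hspa4 read 6.19, 6.02 and 6.18 in 118Q knock-ins, against 6.91, 6.68 and 7.17 in their wild types. Its change was -0.79 ± 0.13 (SE), with an adjusted p of 0.0218. The groups did not overlap, as with the first probe set. Probe set 1416146_at read 6.30, 5.48 and 5.67 in 118Q knock-ins, against 5.59, 6.00 and 6.13 in wild types, and these groups overlapped, with a change of -0.089. The last Hspa4 probe set, 1440575_at, was dim, at a mean of 2.04 below every array's median, and its change was -0.064. The probe sets therefore disagreed, and their mean had a change of -0.38 with an adjusted p of 0.0606. The adjusted p of 1416147_at was above 0.05 without any 1 of 4 arrays, with values of 0.102 and 0.128 without knock-in arrays 2 and 3, and 0.101 and 0.128 without wild-type arrays 1 and 3. Leaving out the same arrays gave 0.102, 0.121, 0.0601 and 0.116 for 1435194_at, while its change stayed between -0.91 and -0.66.

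Hspa8 encodes HSC70, the main HSP70 of unstressed cells, which also uncoats clathrin vesicles. Its brightest probe set, 1420623_x_at, read 10.30, 9.90 and 9.96 in 118Q knock-ins, against 10.47, 10.61 and 10.37 in wild types. Its second, 1455789_x_at, read 10.10, 9.89 and 9.92 in knock-ins, against 10.33, 10.46 and 10.51 in wild types. Neither pair of groups overlapped. Their changes were -0.43 ± 0.13 and -0.46 ± 0.14 (SE), with adjusted p of 0.138 and 0.119, so the difference did not pass the test. Without knock-in array 1 the change at 1420623_x_at was -0.55 with an adjusted p of 0.0365, and without knock-in array 2 it was -0.35 with 0.394. Probe set 1420622_a_at spread widely, at 7.96, 7.14 and 7.12 in knock-ins, against 7.49, 8.39 and 8.26 in wild types, and these groups overlapped. Its change was -0.64 ± 0.28 (SE), with an adjusted p of 0.301, and that of 1431182_at was 0.052.

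Hspd1 had 1 probe set, with the smallest standard error of the 25. It read 7.55, 7.56 and 7.63 in 118Q knock-ins, against 7.89, 7.82 and 7.87 in wild types, so the groups did not overlap. The change of -0.28 ± 0.089 (SE) had an adjusted p of 0.150 and did not pass. Hspe1, named here after its values were seen because its window overlaps that of Hspd1, read 7.52, 7.99 and 7.88 in 118Q knock-ins, against 7.52, 7.57 and 7.83 in wild types. Its change was 0.15 with an adjusted p of 0.667, so the neighbouring genes did not share a direction, though neither change passed.

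Among the inducible genes, Hsp90aa1, which encodes the inducible HSP90 alpha, was the closest to the threshold. Its brightest probe set, 1438902_a_at, read 9.53, 9.22 and 8.95 in 118Q knock-ins, against 9.58, 9.79 and 9.95 in wild types. Probe set 1426645_at read 9.09, 8.80 and 8.80 in knock-ins, against 9.42, 9.37 and 9.17 in wild types. The groups did not overlap at either, but knock-in array 1 lay only just below the lowest wild type. The changes were -0.54 ± 0.13 and -0.42 ± 0.12 (SE), with adjusted p of 0.0686 and 0.0984. The third bright probe set, 1437497_a_at, read 8.96, 8.27 and 8.35 in knock-ins, against 9.01, 8.84 and 8.61 in wild types. Here the groups overlapped, and the change of -0.29 had an adjusted p of 0.50. Without knock-in array 1 the change at 1438902_a_at was -0.69, with an adjusted p of 0.00927, and over 1 probe set per gene, where 1.54% of genes passed, its adjusted p was 0.0455. Other settings weakened it: the mean of the 5 probe sets had a change of -0.26 with an adjusted p of 0.206, and without knock-in array 3 the change at 1438902_a_at was -0.40 with 0.288. Over 17 alternatives its adjusted p lay between 0.00477 and 0.321, and 7 of them put it below 0.05. The dim probe sets 1433251_at and 1441827_x_at, below every array's median, had changes of 0.24 and -0.28 that did not pass.

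The stress markers gave no call in 118Q knock-ins. Hspa1a, which encodes the classical heat-inducible HSP70, read 3.84, 3.93 and 3.65 in knock-ins, against 4.41, 3.89 and 4.62 in wild types. Dnajb1 read 6.45, 7.02 and 6.75 in knock-ins, against 7.00, 6.65 and 6.59 in wild types at its brighter probe set. Hsph1, which encodes the inducible HSP110, read 6.53, 7.37 and 6.81 in knock-ins, against 7.40, 7.30 and 7.36 in wild types. All 3 pairs of groups overlapped, and the changes were -0.50, -0.0052 and -0.45, with adjusted p of 0.578, 0.996 and 0.331. Cryab, the alpha B-crystallin gene of glia and muscle, read 7.27, 7.85 and 7.75 in knock-ins, against 7.40, 7.64 and 7.65 in wild types. Its second bright probe set, 1416455_a_at, read 7.12, 8.07 and 7.80 in knock-ins, against 7.37, 7.40 and 6.85 in wild types. Neither separated the groups, and the changes were 0.065 and 0.46, with adjusted p of 0.932 and 0.349. Hspb8, whose product works with BAG3 in clearing misfolded proteins by autophagy, had overlapping groups at all 3 probe sets, with changes between 0.12 and 0.25.

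By class, the constitutive probe sets had a median change of -0.43 in 118Q knock-ins and the inducible ones 0.016, beside 0.034 over all probe sets. With each gene counted once, at its brightest probe set, the medians were -0.43 over the 3 constitutive and -0.23 over the 6 inducible genes, beside 0.040 over all genes, with 3 of 3 and 4 of 6 below 0. The class medians were thus closer per gene than per probe set. Of the 9 constitutive probe sets, 8 had a change below 0, as did 8 of the 16 inducible ones and 42.6% of all probe sets. All 3 knock-in arrays lay below all 3 wild types at 5 constitutive and 2 inducible probe sets, beside 5.88% of all probe sets, and above them at 0 of the 25, beside 10.4%. The brightest probe sets of all 3 constitutive genes were among those that lay below, and of the inducible genes' brightest probe sets that of Hsp90aa1 was. The difference Hspa1a minus Hspa8 was taken within each array and read only for how it varied between groups. It averaged -6.25 ± 0.26 in 118Q knock-ins and -6.18 ± 0.50 in wild types (SD, n = 3 each), and the groups overlapped.

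**Figure D1:**
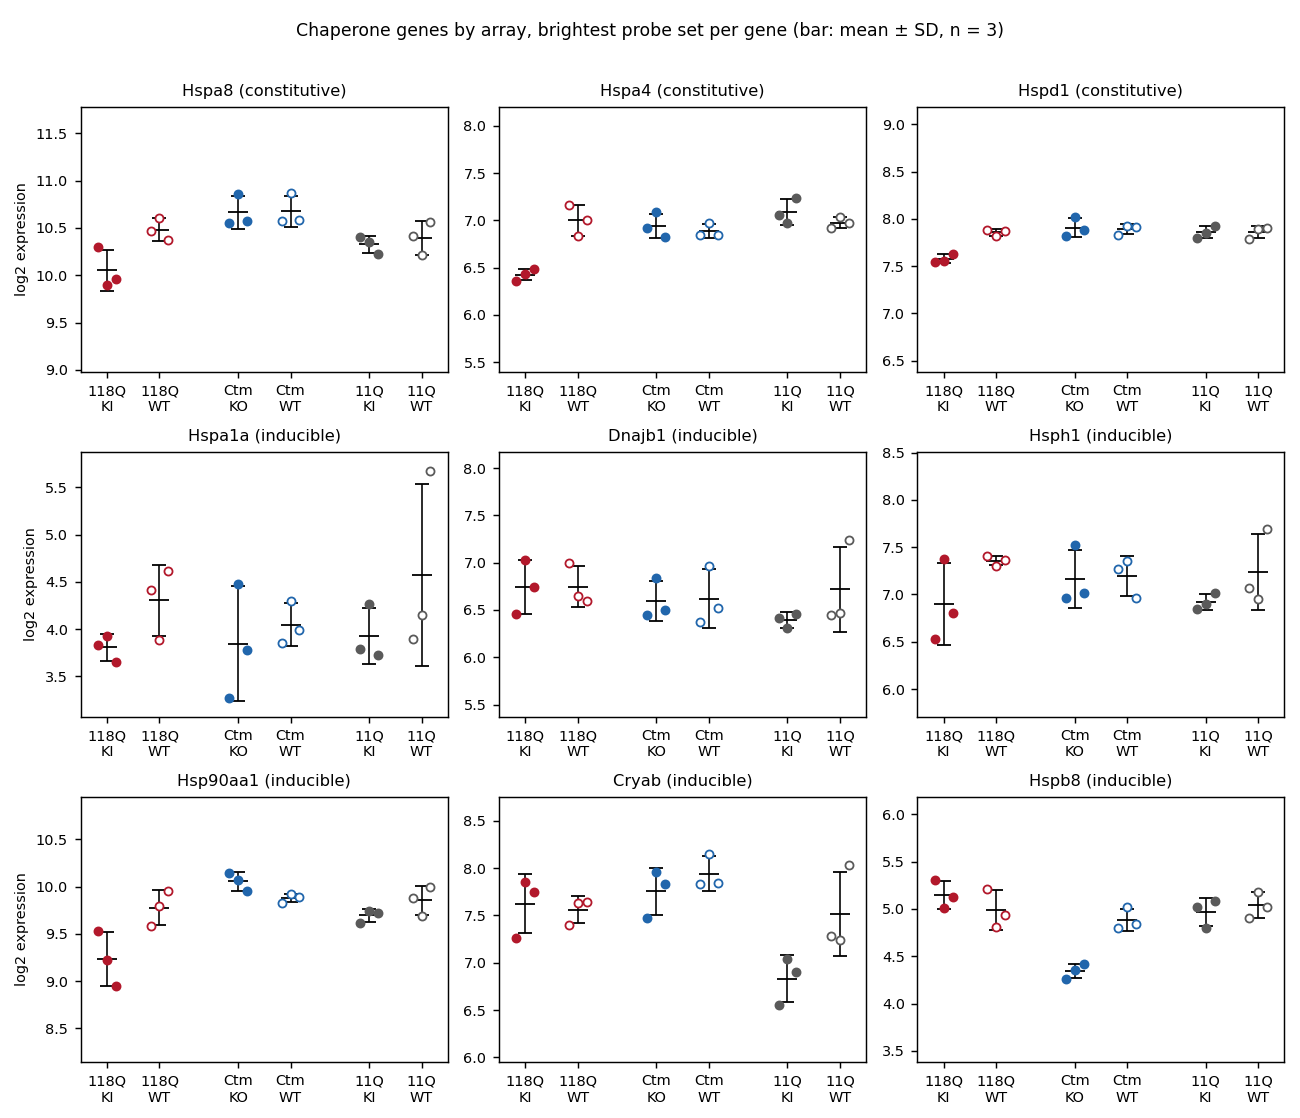
Log2 expression on each array (points) for the brightest probe set of each of the 9 genes, with the mean and SD of 3 arrays per group. Filled points are mutants (KI knock-in, KO knockout), open points their wild types (WT), and each panel spans the same range of log2 units. The 3 arrays of 118Q knock-ins are the lowest of all 18 for Hspa4, the Ctm knockouts are the lowest for Hspb8, and 11Q wild-type array 3 is the highest for Hspa1a.

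Other measures moved with the 118Q groups. The list of Purkinje cell markers had a mean level of 8.34 to 8.93 in knock-ins, against 9.17 to 9.26 in wild types, and 4 of its 10 measured genes fell. The microglial markers lay at 4.14 to 4.54 in knock-ins, against 3.64 to 3.99 in wild types, and 2 of 10 rose. Most vascular markers were lower too. Those of smooth muscle lay at 2.33 to 2.46 in knock-ins, against 2.63 to 2.82 in wild types, without a call among 4 genes. Changes were below 0 at 3 of these 4, with a median of -0.19. Myh11 and Cnn1, both dimmer than every array's median, had changes of only -0.065 and 0.038. Endothelial markers lay at 3.80 to 4.24 in knock-ins, against 4.23 to 4.58 in wild types, with changes below 0 at 7 of 7 genes. Of these Flt1, a VEGF receptor gene, fell, with a change of -0.90 and an adjusted p of 0.0218. The markers of cerebellar interneurons had a median change of -0.68, with 4 of 5 genes below 0 and none called, and levels of 7.38 to 8.20 in knock-ins, against 8.18 to 8.36 in wild types. The endothelial and interneuron levels overlapped between the groups. The difference between 3′ and 5′ control probe sets, an RNA measure that grows as RNA degrades, also differed. It was 0.415 to 0.473 in knock-ins, against 0.496 to 0.613 in wild types, without overlap, so by it knock-in RNA was the more intact. The part of these measures in the changes of the chaperone genes was not tested. With the RNA measure as a covariate in limma, the differences of Hspa4 were -0.61 and -0.82, with adjusted p of 0.0770 and 0.0668. As the RNA measure did not overlap between these groups, that fit cannot tell its part from that of genotype. In whole tissue, fewer cells of a type and less RNA per cell cannot be told apart.

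In Ctm knockouts, Hspb8 fell and no other chaperone probe set passed the test, 1 of 25 beside 0.916% of all probe sets in this line and 0.0572% in the lower direction. None rose, beside 0.858%. At an unadjusted p of 0.05, 2 member probe sets were lower and 1 was higher, beside 5.45% and 5.58% of all. The brightest Hspb8 probe set, 1417013_at, read 4.26, 4.36 and 4.42 in Ctm knockouts, against 4.79, 5.02 and 4.84 in Ctm wild types. The knockouts were below all 15 other arrays, where the 118Q and 11Q lines read 4.80 to 5.31. The change was -0.54 ± 0.13 (SE), or 68.8% of the wild-type level, with an adjusted p of 0.0476 in limma. Probe set 1417014_at read 2.96, 3.24 and 3.66 in knockouts, against 3.89, 3.98 and 4.01 in wild types, with a change of -0.68 and an adjusted p of 0.0739. Probe set 1456434_x_at read 3.24, 3.05 and 3.21 in knockouts, against 3.35, 3.56 and 3.55 in wild types, with a change of -0.32 and an adjusted p of 0.467. The knockouts thus lay below the wild types at all 3 probe sets, as they did at 12.4% of all probe sets. The call of 1417013_at was close to the threshold and was lost without any 1 knockout array, with adjusted p of 0.217, 0.160 and 0.0962, and without wild-type array 2 or 3, with 0.152 and 0.209. Without wild-type arrays 2 and 3 together the change was -0.45 with an adjusted p of 0.710, in a fit that assumes the 1 remaining wild type to vary like the other groups.

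Marker lists also separated the Ctm groups. Microglial markers lay at 3.55 to 3.65 in knockouts, against 3.72 to 3.83 in wild types, with 7 of 10 genes below 0. Myelin markers lay at 8.27 to 8.36 in knockouts, against 8.38 to 8.45 in wild types, with 7 of 9 below 0. None of these genes passed the test, and the part of the lists in the values of Hspb8 and Hsp90aa1 was not tested.

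No constitutive probe set passed in Ctm knockouts, with adjusted p of 0.828 or more. The median change was -0.012 over the 9 constitutive probe sets and -0.027 over the 16 inducible ones, beside -0.041 over all probe sets. The largest constitutive change by size was -0.22, at a probe set of Hspa8. Hsp90aa1, whose values were lower in 118Q knock-ins, had higher ones in Ctm knockouts. It read 10.15, 10.07 and 9.95 at 1438902_a_at in Ctm knockouts, against 9.83, 9.92 and 9.89 in wild types, and 9.88, 9.90 and 9.61 at 1426645_at, against 9.59, 9.51 and 9.50. At 1437497_a_at it read 9.67, 9.92 and 9.65 in knockouts, against 9.65, 9.56 and 9.51 in wild types. All knockouts lay above all wild types at these 3 probe sets, as at 7.01% of all probe sets, but changes of 0.18, 0.26 and 0.18 did not pass, with adjusted p of 0.706, 0.418 and 0.791. Hspa1a read 3.27, 4.48 and 3.78 in knockouts, against 3.85, 4.30 and 4.00 in wild types, and Cryab read 7.47, 7.96 and 7.84 in knockouts, against 7.83, 8.16 and 7.84 in wild types. Both overlapped, with changes of -0.20 and -0.19. Without wild-type arrays 2 and 3, the changes at the brightest probe sets were 0.22 for Hsp90aa1, -0.0062 for Hspa1a, -0.074 for Cryab, -0.098 for Hsph1 and 0.22 for Dnajb1. Those of the constitutive genes were 0.088 for Hspa8, 0.096 for Hspa4 and 0.077 for Hspd1, and none of these 8 changes passed. That of Hsp90aa1 was thus as large without these arrays, while the change of Hspa1a was near 0 and those of Hspa8 and Dnajb1 turned sign. Hspa1a minus Hspa8 averaged -6.82 ± 0.45 in knockouts and -6.63 ± 0.084 in wild types (SD, n = 3 each), and the groups overlapped.

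In 11Q knock-ins no chaperone probe set passed the test, as none of the 34945 did (0%) in limma. At an unadjusted p of 0.05, 1 of the 25 was lower and 0 were higher, beside 2.85% and 2.39% of all probe sets. The lower one was Cryab, at 6.55, 7.04 and 6.90 in 11Q knock-ins, against 7.28, 7.24 and 8.03 in 11Q wild types. The groups did not overlap, and the change was -0.68 ± 0.20 (SE) with an adjusted p of 0.909. The second bright Cryab probe set read 6.47, 6.60 and 6.67 in knock-ins, against 6.81, 6.72 and 7.29 in wild types, with a change of -0.36. Of the 25 probe sets, 21 had a change below 0, beside 52.7% of all, and 3 had knock-ins wholly below wild types, beside 5.61%. Myelin markers had changes below 0 at 9 of 9 measured genes, with mean levels of 7.65 to 8.23 in knock-ins, against 7.91 to 8.29 in wild types, and choroid plexus markers lay at 2.35 to 6.40 in knock-ins, against 6.62 to 6.98 in wild types. Their part in the values of Cryab was not tested. With Ttr, a choroid plexus gene, as a covariate the change of Cryab was -0.65. Ttr itself was lower in all knock-ins than in all wild types of this line, so that fit cannot tell its part from that of genotype.

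The negative changes of Hspa1a, Dnajb1 and Hsph1 in the 11Q line rested largely on 1 wild-type array. Hspa1a read 3.79, 4.27 and 3.72 in 11Q knock-ins, against 3.89, 4.15 and 5.68 in wild types. Dnajb1 read 6.42, 6.30 and 6.46 in knock-ins, against 6.45, 6.47 and 7.24 in wild types, and Hsph1 read 6.85, 6.89 and 7.02 in knock-ins, against 7.07, 6.95 and 7.69 in wild types. Wild-type array 3 was the highest array of its line for each of these genes, and the highest of all 18. Without it the change of Hspa1a was -0.098 in place of -0.65, that of Dnajb1 -0.064 in place of -0.32, and that of Hsph1 -0.090 in place of -0.32. Without it the change of Cryab was -0.43 in place of -0.68 and that of Hsp90aa1 -0.088 in place of -0.16, while Hspb8 had -0.077 in place of -0.071. This array also had the lowest RNA measure of the 6 in its line, 0.501, beside 0.599 to 0.728 on the others. By that measure its RNA was the most intact of the line, and the part of that in its values was not tested.

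**Figure D2:**
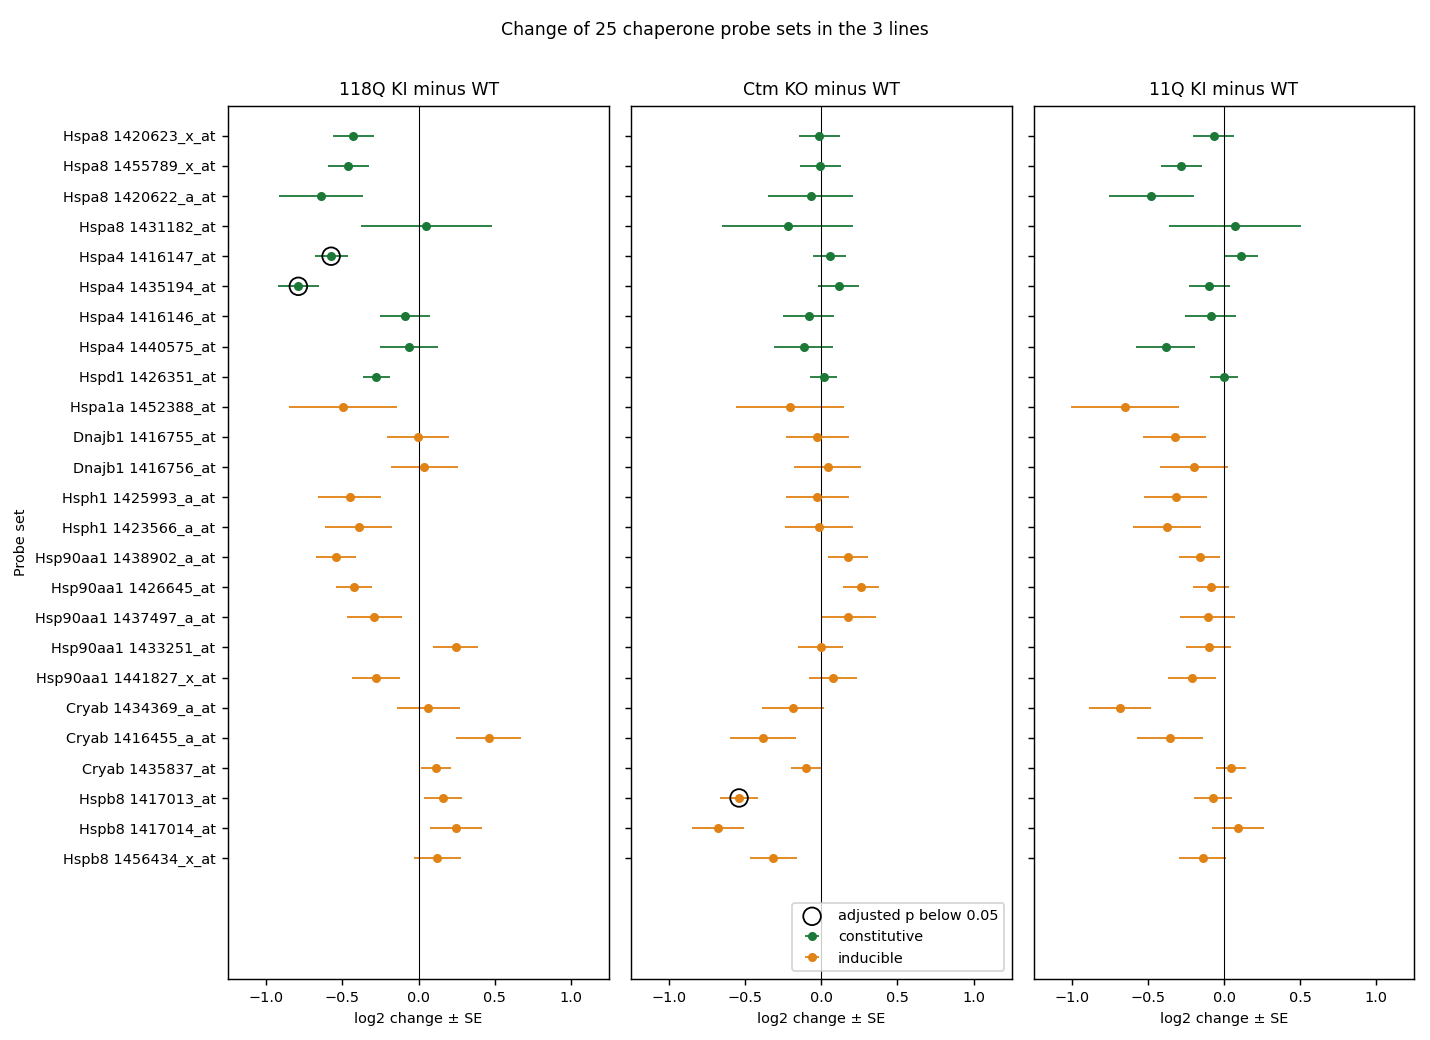
Log2 change, mutant minus wild type, with its standard error for each of the 25 probe sets in the 3 lines, in green for constitutive and orange for inducible genes. Circles mark adjusted p below 0.05 in limma. In 118Q knock-ins the points of Hspa8, Hspa4 and Hspd1 lie mostly left of 0 and the 2 called ones are of Hspa4, whereas in Ctm knockouts the 1 called point is of Hspb8.

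The effects of the lines were also compared with each other in limma. The 118Q effect was lower than the Ctm effect at 3 of the 25 probe sets, beside 0.873% of all probe sets, and higher at 0, beside 0.758%. At an unadjusted p of 0.05, 7 were lower and 3 higher, beside 6.29% and 10.2% of all. At 1416147_at of Hspa4 the effects were -0.57 in the 118Q line and 0.055 in the Ctm line, a difference of -0.63 ± 0.15 (SE) with an adjusted p of 0.0472. At 1435194_at they were -0.79 in the 118Q line and 0.11 in the Ctm line, a difference of -0.90 ± 0.19 (SE) with an adjusted p of 0.0315. At 1426645_at of Hsp90aa1 they were -0.42 in the 118Q line and 0.26 in the Ctm line, a difference of -0.68 ± 0.17 (SE) with an adjusted p of 0.0469. Without Ctm wild-type arrays 2 and 3, the 3 differences were -0.67, -1.02 and -0.63, about as large. These arrays lay furthest off over the probe sets called higher in Ctm knockouts, a list that cannot show whether they do so elsewhere. That fit has no spread among the Ctm wild types, so only sizes are given. Hspb8 at 1417013_at, with 0.16 in the 118Q line and -0.54 in the Ctm line, gave 0.70 with an adjusted p of 0.0520 and did not pass. Against the 11Q line, no member's 118Q or Ctm effect differed at an adjusted p of 0.05, as was so for 0% of all probe sets. At an unadjusted p of 0.05, 118Q minus 11Q was lower at 3 and higher at 2 of the 25, beside 2.99% and 5.99% of all probe sets, and Ctm minus 11Q lower at 2 and higher at 0, beside 3.29% and 4.62%. The difference 118Q minus 11Q was -0.69 for Hspa4 at both called probe sets, with adjusted p of 0.293 and 0.318.

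Levels of the Ctm line differed from those of the knock-in lines in some probe sets whatever the genotype. A moderated F test across the wild-type groups of the 3 lines passed for 2 of the 25 probe sets, beside 10.6% of all probe sets, so the share among chaperones was near the background. Hspa8 at 1420622_a_at read 9.07 to 9.72 over the 6 Ctm-line arrays, against 7.12 to 8.70 over the 12 others, with an adjusted p of 0.00666 among wild types. Hsp90aa1 at 1437497_a_at read 9.51 to 9.92 in the Ctm line, against 8.27 to 9.11 in the others, with an adjusted p of 0.0105. Both probe sets placed all Ctm-line arrays above all others, as did 1426645_at of Hsp90aa1 by a narrow margin, 3 of 25 beside 2.23% of all probe sets. None placed them all below, beside 1.87%. Hspa8 at its brightest probe set overlapped, with 10.55 to 10.87 in the Ctm line, against 9.90 to 10.61 in the others, and its adjusted p among wild types was 0.345. The remaining 23 probe sets did not pass the F test, and without Ctm wild-type arrays 2 and 3 none of the 25 did.

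**Figure D3:**
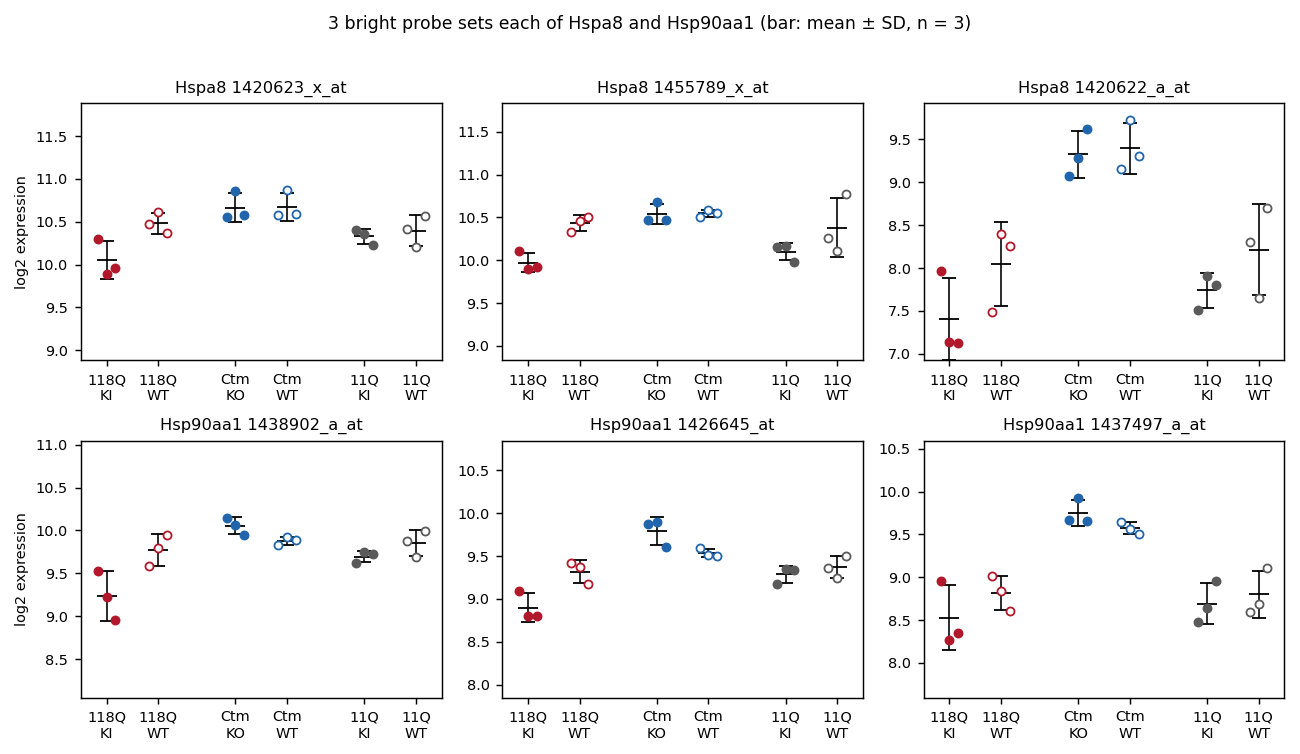
Log2 expression on each array (points) for 3 probe sets each of Hspa8 and Hsp90aa1, with the mean and SD of 3 arrays per group, mutants filled and wild types open. At 1420622_a_at of Hspa8 and 1437497_a_at of Hsp90aa1 all 6 Ctm-line arrays are above the 12 others, while at the brightest probe sets the lines overlap.

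Members were then compared by how they varied between arrays of the same group, as Pearson's r over 18 arrays after each group's mean was subtracted. These values describe variation between arrays from any source and carry no test. The inducible genes Hspa1a, Dnajb1, Hsph1 and Cryab varied together, with r between 0.67 and 0.83 in all 6 pairs, and between 0.44 and 0.75 over the 17 arrays without 11Q wild-type array 3. Hsp90aa1, though also inducible, had r between -0.067 and 0.29 with these 4 genes, and Hspb8 between -0.27 and 0.19. Constitutive Hspd1 varied with the block to a lesser degree, with 0.58 for Hspa1a, 0.55 for Dnajb1, 0.52 for Cryab and 0.41 for Hsph1, and between 0.35 and 0.64 without 11Q wild-type array 3. Hspa4 had its highest values with Hspd1, at 0.70, Hspb8, at 0.61, and Dnajb1, at 0.50. The highest value of Hspa8 was 0.46, with Hsp90aa1. The constitutive and inducible classes and the groups by variation on these arrays thus overlapped only in part.

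**Figure D4:**
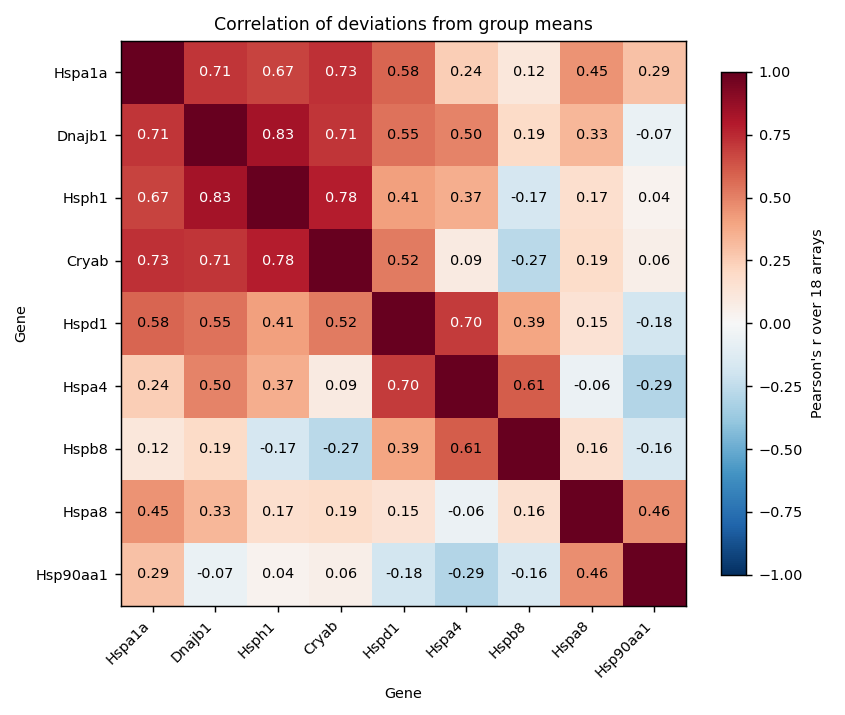
Pearson's r between genes over 18 arrays, computed on deviations from group means at each gene's brightest probe set. Hspa1a, Dnajb1, Hsph1 and Cryab form a block with r of 0.67 to 0.83, and Hsp90aa1 and Hspb8 lie outside it.

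Likeness was ranked over 10217 genes brighter than the median, with predicted loci (Gm and Rik symbols) left out. Those most like Hspa1a by these deviations over 18 arrays were Rnf217 at 0.90, then Zcchc9, Tgfa, Tab2 and Hspa1b, the last at 0.88. Hspa1b encodes a nearly identical HSP70, so its probe set and that of Hspa1a may share signal. It read 4.62, 4.69 and 7.03 in 11Q wild types, with array 3 standing out as for Hspa1a. By raw values Hspa1a was closest to Hspa1b at 0.86, followed by Rapgef5, Adam9, Cttnbp2nl and Tstd2. Hspa4 was closest in raw values to Sel1l at 0.90, then Lmtk2, Larp1, Slc12a5 and Tiam1, and in deviations to Flrt1 at 0.85, then Limd1, Fat1, Fam160b1 and Dip2b. Hsp90aa1 was closest in raw values to Cttnbp2 at 0.95, then Kcnd2, Aak1, Svil and Kpna4, and in deviations to Rtn4 at 0.91, then Cep76, Lrrc8c, Mtmr6 and Pde10a. The lists from raw values and from deviations shared only Hspa1b, the partner of Hspa1a.

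Other genes of the chaperone network were read from lists of 61 genes, of which 57 were measured. None of the 57 passed in any line by limma. At an unadjusted p of 0.05, 4 were lower and 4 higher in 118Q knock-ins, 4 lower and 0 higher in Ctm knockouts, and 1 lower and 0 higher in 11Q knock-ins. Over all probe sets the lower and higher shares were 5.32% and 8.73% in the 118Q line and 5.45% and 5.58% in the Ctm line. In the 11Q line they were 2.85% and 2.39%. Of all 18193 genes at their brightest probe sets, 986 were lower and 1818 higher in the 118Q line. The counts were 1226 and 835 in the Ctm line, and 550 and 391 in the 11Q line. The numbers of listed genes that were lower were thus near the background in each line. The median change was -0.024 in 118Q knock-ins, -0.15 in Ctm knockouts and -0.058 in 11Q knock-ins. Changes lay below 0 at 31, 47 and 40 of the 57 genes in the 118Q, Ctm and 11Q lines. Over all 18193 genes, each at its brightest probe set, 7512, 11721 and 9880 lay below 0. Over all probe sets the shares were 42.6%, 59.9% and 52.7%.

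In 118Q knock-ins the smallest p belonged to Dnajc6, the auxilin gene whose J-domain product recruits HSC70 to clathrin coats. It read 8.05, 7.53 and 7.73 in knock-ins, against 8.17, 8.23 and 8.23 in wild types, without overlap, and its change of -0.44 had an adjusted p of 0.0856. Hspa4l, the HSP110 paralog of Hspa4, read 6.91, 7.01 and 7.00 in knock-ins, against 7.38, 7.30 and 7.31 in wild types. These groups did not overlap either, and the change of -0.35 had an adjusted p of 0.103, so neither gene passed.

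In Ctm knockouts the smallest p belonged to Dnaja3, a mitochondrial J-domain gene, at -0.24 with an adjusted p of 0.268, and to Cct3, a subunit gene of the cytosolic chaperonin TRiC, at -0.25 with 0.335. In 11Q knock-ins Cct4 of TRiC had -0.36 and St13, an HSP70 co-chaperone gene, -0.22, both with an adjusted p of 0.909. The 8 TRiC genes had changes below 0 at 7 of 8 in 118Q knock-ins, 8 of 8 in Ctm knockouts and 7 of 8 in 11Q knock-ins, with medians of -0.13, -0.13 and -0.12. None of these passed. Over all genes at their brightest probe sets the medians were 0.040, -0.060 and -0.017 in the 118Q, Ctm and 11Q lines, with 7512, 11721 and 9880 of 18193 below 0. The co-chaperones of HSP90 lay below 0 at 4 of 11 genes in 118Q knock-ins, with a median of 0.084, and the remaining small heat shock protein genes at 1 of 6, with 0.14. All probe sets of that line had a median of 0.034, with 42.6% below 0, and no gene of either list passed.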

How the data were processed

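The deposited values are log2 expression per probe set, made by the authors with RMA per the submitters' processing notes. The version and the zero point of the scale are not given in the sources used here, so the size of changes in dim probe sets depends on that background step, and the number of arrays limits the precision. RNA integrity numbers were above 5.0 per the labels. Genes were named from the platform annotation: of 45101 probe sets, 64 were array controls, 34945 had 1 symbol and were tested, and 10092 had several or none.

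All 34945 probe sets were fitted in limma 3.58.1 (R 4.3.3, lmFit and eBayes) with 1 mean per group over all 18 arrays, as the series' design names limma. Tests were two-sided, with Benjamini-Hochberg adjustment over all probe sets per contrast and a threshold of 0.05. On simulated data for 118Q knock-ins over 34945 probe sets, 29.9% of log2 changes of 0.5, 88.1% of 1 and 100% of 2 were recovered, with 5 false calls. These changes were put into 67, 67 and 66 probe sets. Normal noise was drawn independently for each probe set and array, so effects shared across an array were not simulated. The rates need not hold for the real arrays.

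The genes, classes and lists were chosen with earlier results of these data known. Where 1 value stands for a gene, its brightest probe set by the mean of all 18 arrays was used. All 10 genes are named, as are the 2 listed network genes with the smallest p per line and the 5 genes most like Hspa4, Hsp90aa1 and Hspa1a. Hsp90ab1, and so its planned comparison with Hsp90aa1, and protein sequences were not analysed here. Alternatives covered probe sets per gene, dim probe sets, the prior, array weights, normalization, the RNA measure, Ttr, replicate numbers, controls, a fold threshold of 1.5 and arrays left out. Same-numbered arrays of a line deviated with correlations of -0.12 to 0.22, so the numbers were not taken as pairs.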

Additional observations from a re-analysis of the deposited data

Results flagged for a closer look

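The effects of the 118Q and Ctm lines differed by limma's test of the difference at 3 chaperone probe sets. For Hspa4 the 118Q effect minus the Ctm effect was -0.63 at 1416147_at, over alternatives between -0.71 and -0.54 with adjusted p of 0.0250 to 0.194. At 1435194_at of Hspa4 the difference was -0.90, over alternatives between -1.02 and -0.74 with adjusted p of 0.0133 to 0.101. For Hsp90aa1 at 1426645_at it was -0.68, over alternatives between -0.80 and -0.63 with adjusted p of 0.00641 to 0.265.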

How the results depend on the processing

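Directions held under all alternatives run for Hspa4, Hsp90aa1, Hspa8 and Hspd1 in 118Q knock-ins and for Hspb8 in Ctm knockouts, but calls did not. Chaperone probe sets called in 118Q knock-ins were 2, and 0 by averaging each gene's probe sets, with the RNA covariate or from the line's 6 arrays alone, 1 with a fold of at least 1.5, 4 with trend and robust settings, 6 against all 6 knock-in-line wild types and 7 with array weights. Over all probe sets the count of 195 became 491 without dim probe sets, 412, 2194 and 1681 under those last 3 settings, 299 after quantile normalization, 1 with the RNA covariate and 0 from the line alone. In Ctm knockouts the 1 call became 0 by the mean, quantile normalization, the RNA or Ttr covariate, the fold threshold, the line alone or without wild-type arrays 2 and 3, 2 without dim probe sets or with array weights, and 6 against the other wild types. The Ctm count of 320 became 169 by brightest probe sets, 176 by means, 492, 1028 and 3456 under those last 3 settings, 2 from the line alone and 5 without wild-type arrays 2 and 3. In 11Q knock-ins the count of 0 became 3 with trend and robust settings, 5 with array weights, 1 against the other wild types and 4 from the line alone. With the replicate number as a block, calls in 118Q knock-ins were 1 among chaperones, with an adjusted p of 0.0695 at 1416147_at of Hspa4, and 77 in all, calls among chaperones in Ctm knockouts were 0, and 1 probe set was called in 11Q knock-ins; the numbers are not described as pairs. Chaperone differences between the 118Q and Ctm effects were 3, and 1 by means, 6 without dim probe sets or with array weights, 5 with trend and robust settings, and 0 with the RNA covariate or without Ctm wild-type arrays 2 and 3. The F test's 2 became 0 by brightest probe sets, by means or without those arrays. Leaving out each array in turn gave 0 to 5 chaperone and 1 to 1078 overall calls in 118Q knock-ins, 0 to 1 and 4 to 796 in Ctm knockouts, 0 and 0 to 2 in 11Q knock-ins, 0 to 4 differences, and 1 to 2 by the F test.

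Signs turned only for changes that had not been called, and none of the 46 turned values among 541 passed. In 118Q knock-ins Dnajb1 had 0.016 by means, 0.038 with array weights and 0.0090 against the 6 wild types, and Cryab -0.14 with the RNA covariate. In Ctm knockouts Hspa8 had 0.23 and Cryab 0.22 against those wild types, Hspa4 -0.0074 by means and -0.045 against those wild types, Dnajb1 0.0080 by means, 0.0014 after quantile normalization and 0.0030 with Ttr, and Hsph1 0.011 with Ttr. Without Ctm wild-type arrays 2 and 3, Hspa8 had 0.088 and Dnajb1 0.22. In 11Q knock-ins Hspa4 had -0.11 by means, Hspb8 0.054 with Ttr, and Hspd1 0.025 with array weights, 0.029 after quantile normalization, 0.016 with the RNA covariate, 0.032 with Ttr and 0.00022 against both lines' wild types. Leaving out 1 array turned Dnajb1 (-0.15 to 0.14) and Cryab (-0.050 to 0.24) in 118Q knock-ins. In Ctm knockouts it turned Hspa8 (-0.11 to 0.082), Hspa4 (-0.015 to 0.11), Hspd1 (-0.041 to 0.058), Hspa1a (-0.52 to 0.082), Dnajb1 (-0.15 to 0.15) and Hsph1 (-0.20 to 0.073). In 11Q knock-ins it turned Hspa8 (-0.16 to 0.017), Hspd1 (-0.038 to 0.029) and Hspb8 (-0.14 to 0.014). The causes were not tested.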

Other observations

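Hsf2, the gene of a heat shock factor related to HSF1, was singled out after its values were seen. Its brightest probe set, 1449306_at, read 1.68, 1.63 and 1.76 in Ctm knockouts and 1.59, 1.82 and 1.66 in Ctm wild types. It read 2.91, 2.88 and 2.84 in 118Q knock-ins, against 2.91, 3.01 and 3.11 in their wild types, and 2.94, 3.00 and 3.14 in 11Q knock-ins, against 3.01, 3.01 and 3.38 in theirs. All 6 Ctm-line arrays thus lay below all 12 others, as at 1.87% of all probe sets, and the F test over wild types had an adjusted p of 6.06e-06. The Ctm-line values are below every array's median signal.

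Hspb6, a small heat shock protein gene also singled out after its values were seen, read 4.85, 4.51 and 4.47 in 118Q knock-ins, against 4.26, 4.16 and 3.99 in wild types. It read 3.96, 4.08 and 4.06 in Ctm knockouts, against 4.26, 4.18 and 4.43 in wild types. The groups did not overlap in either line and lay on opposite sides, with changes of 0.47 and -0.25 and adjusted p of 0.147 and 0.585. The difference between the effects had an adjusted p of 0.0838 and did not pass.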
